A study of Mus musculus with 6 samples.

Results

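This account covers 41 genes that act at the G1-S transition and in DNA replication, measured by RNA sequencing in cultured primary mouse hepatocytes. The genes were taken by symbol from a fixed list and matched to Ensembl identifiers with GENCODE M21 on GRCm38. All 41 were found among the 55487 genes of the count tables, and all 41 passed the low-count filter, which left 13296 genes for testing. They were sorted by role into 8 G1 cyclin and cyclin-dependent kinase (CDK) genes, 6 genes of pocket proteins, E2F factors and Myc, 12 genes of origin licensing and the replicative helicase, 10 genes of polymerases and fork factors, 4 genes of nucleotide supply, and Uhrf1. Alb/MDA-9 hepatocytes came from transgenic mice on a B6CBAF1 background, bred from heterozygotes and WT mice, that expressed human MDA-9/SDCBP with a C-terminal HA tag under the mouse albumin promoter and an upstream enhancer, elements active in hepatocytes. WT hepatocytes came from littermates without the transgene. Both groups were fed regular chow, both sets of hepatocytes were cultured without treatment, and each group had 3 libraries. Ages were not in the labels, nor whether the 3 libraries of a group came from separate mice or cultures, so a p-value here reflects only how far libraries of 1 group vary, which could be partly technical. Counts were made on a mouse annotation, and the human transgene was not analysed here. Gene coordinates below are on GRCm38, and gene identifiers are given for the genes on which the results turn.

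A cell enters S phase when D-type cyclins with CDK4 or CDK6, and then E-type cyclins with CDK2, phosphorylate the pocket proteins and so release E2F transcription factors. E2F factors drive the genes that license origins, unwind and copy DNA, and make deoxynucleotides. In the adult liver most hepatocytes rest outside the cycle, and in rodents they re-enter it after partial hepatectomy, with induction of cyclin D1. Plated primary hepatocytes can also move into G1.

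Of the 41 genes, 27 fell in Alb/MDA-9 and 0 rose (quasi-likelihood F test of edgeR over all tested genes, threshold 0.05 after Benjamini-Hochberg adjustment). Over all tested genes 7.09% were called lower and 7.35% higher. At an unadjusted p under 0.05, 31 of the 41 were lower and 1 higher, against 13.9% and 14.0% of all tested genes. DESeq2 called 27 lower and 0 higher, against 7.21% and 7.42% of all tested genes. The median log2 change, Alb/MDA-9 over WT, was -0.51 over the 41 genes and -0.0015 over all tested genes, and 38 of the 41 had a value below 0, against 50.3% of all tested genes. All 3 Alb/MDA-9 libraries lay below all 3 WT libraries for 30 of the 41, against 16.5% of all tested genes, and above them for 2, against 17.1% of all tested genes. A test against a fold of 1.5 called 6 of the 41 lower, namely Ccnd1, Ccne2, Cdc6, Rrm2, Tk1 and Uhrf1, against 1.17% of all tested genes, and 0 higher, against 0.632%. Without a single library the number lower ran from 21 (without Alb/MDA-9 2 or without WT 2) to 30 (without Alb/MDA-9 3). Over all tested genes 579 of 13710, 515 of 13516 and 1208 of 13695 were lower in those 3 fits. Levels are given as TMM-scaled CPM, the reads of a gene relative to the size of its library, for libraries 1 to 3 in order. Log2 changes are from the edgeR fit, with adjusted p-values from the same test.

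**Figure D1:**
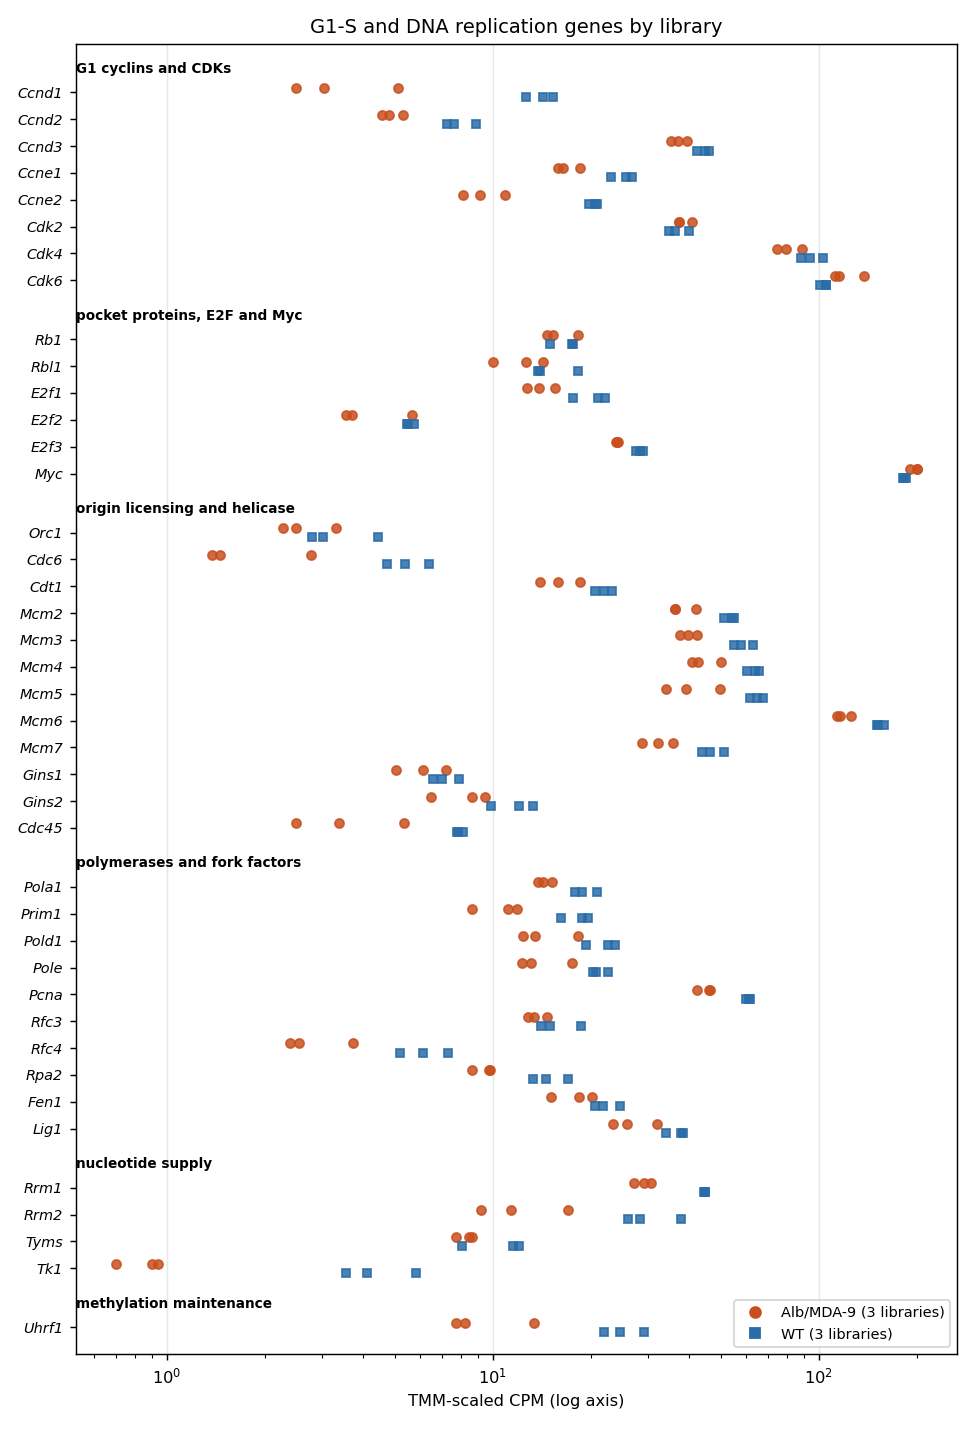
TMM-scaled CPM on a log axis for each of the 41 genes, grouped by role, with 1 point for each of the 3 Alb/MDA-9 libraries (circles) and 3 WT libraries (squares). The libraries of both groups are apart, with Alb/MDA-9 lower, for 30 genes. Those of Cdk2, Cdk4, Rb1, Rbl1, E2f2, Orc1, Gins1, Rfc3 and Tyms overlap, and Cdk6 and Myc lie higher in Alb/MDA-9.

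**Figure D2:**
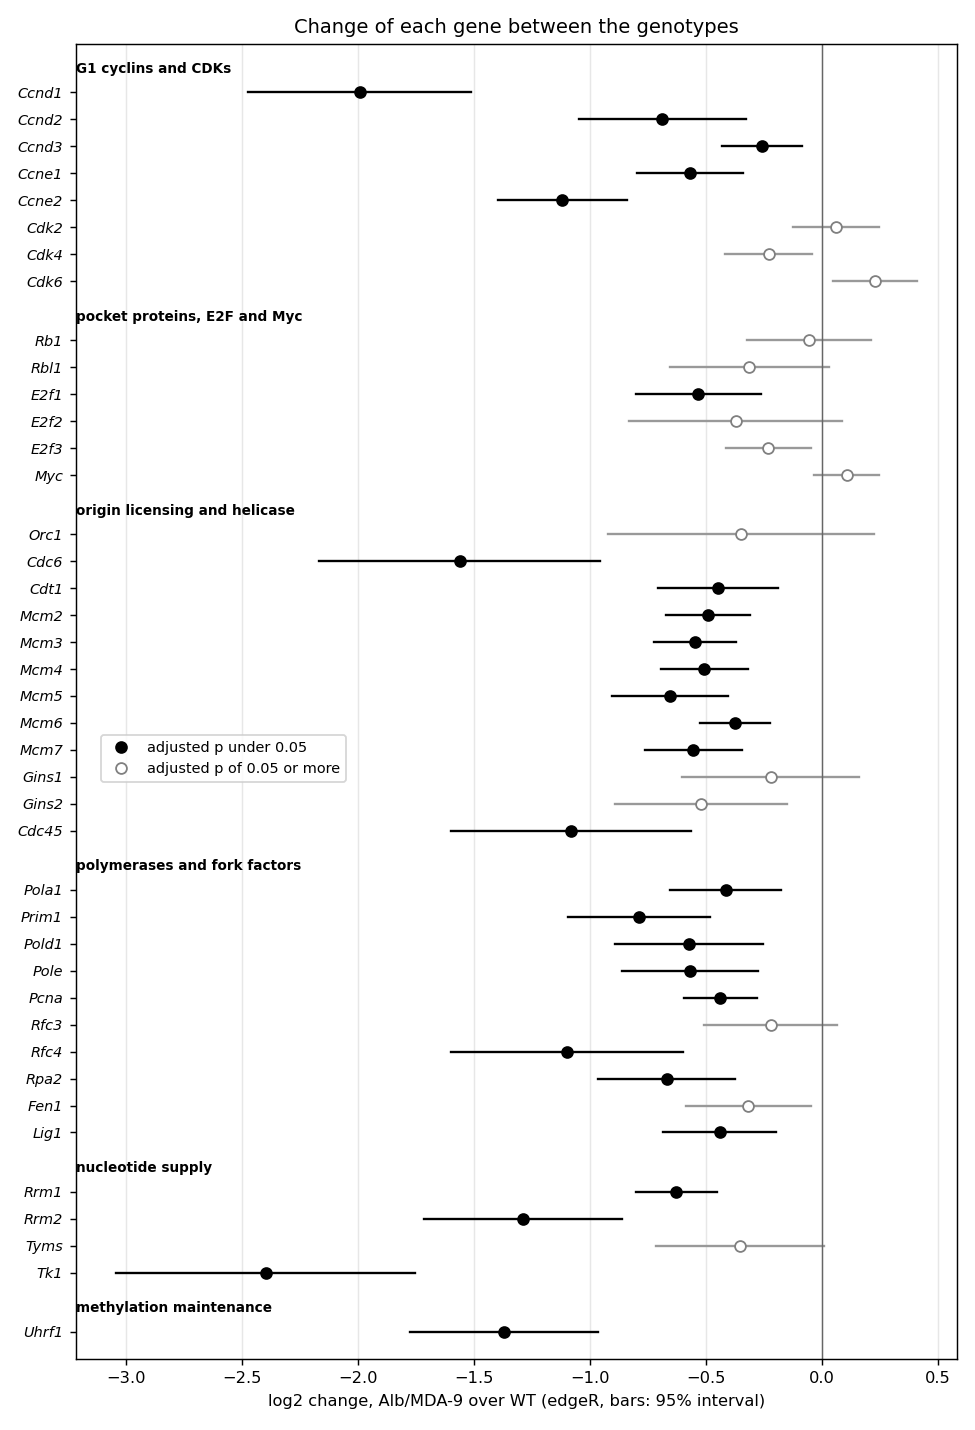
The log2 change between Alb/MDA-9 and WT from the edgeR fit over all tested genes, with its 95% interval, for each of the 41 genes by role. Filled points mark the 27 genes with an adjusted p under 0.05, all of them left of 0, from Ccnd3 at -0.26 to Tk1 at -2.40.

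Promoter windows were examined because E2F binding letters are known from many genes of this class. RefSeq promoter sequences on GRCm38.p6, from 250 bases before to 50 bases after an annotated start, were found for 32 of the 41 genes, in 40 windows. Those not found were Ccnd1, Ccnd2, Ccne2, Rb1, Myc, Mcm4, Gins1, Gins2 and Pole. The E2F letters searched on both strands were TTTCCCGC, TTTGGCGC, TTTCGCGC and TTTGCCGC, which can overlap each other. A match in at least 1 window was present for 16 of the 32 genes (50%), against 2.6% of all 27025 genes with a window. By role the matches fell on 7 of 9 genes of licensing and the helicase, 4 of 9 of polymerases and fork factors, 3 of 4 of pocket proteins and E2F, 1 of 5 of cyclins and CDKs and 0 of 4 of nucleotide supply, and Uhrf1 held 1. Among genes that fell 10 of 22 held a match, and among those not called 6 of 10 did. The CCAAT box (CCAAT, both strands) was present for 19 of the 32 genes (59.4%), against 41.1% of all genes with a window, and the cell-cycle homology region (TTTGAA, both strands) for 5 (15.6%), against 20.2%. The windows shown are on the gene's own strand, 5′ to 3′, with E2F letters in capitals. They were picked after the values were seen, for helicase and loading genes that fell, for a gene that fell strongly without a match, and for a gene with a match that did not pass the test.
Mcm5, chr8:75109259-75109558, plus strand: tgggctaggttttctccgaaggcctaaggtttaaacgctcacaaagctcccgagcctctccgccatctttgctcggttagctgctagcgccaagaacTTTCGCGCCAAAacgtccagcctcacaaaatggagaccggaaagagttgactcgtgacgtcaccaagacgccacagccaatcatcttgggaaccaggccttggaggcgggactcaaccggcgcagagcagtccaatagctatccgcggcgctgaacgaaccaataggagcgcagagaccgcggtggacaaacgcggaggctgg
Mcm6, chr1:128359656-128359955, minus strand: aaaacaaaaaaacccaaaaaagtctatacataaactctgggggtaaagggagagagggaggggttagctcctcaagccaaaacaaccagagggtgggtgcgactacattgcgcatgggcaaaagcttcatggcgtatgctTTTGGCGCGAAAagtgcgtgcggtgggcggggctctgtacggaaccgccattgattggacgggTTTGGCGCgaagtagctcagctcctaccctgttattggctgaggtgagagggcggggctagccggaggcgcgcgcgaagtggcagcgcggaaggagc
Cdc6, chr11:98907901-98908200, plus strand: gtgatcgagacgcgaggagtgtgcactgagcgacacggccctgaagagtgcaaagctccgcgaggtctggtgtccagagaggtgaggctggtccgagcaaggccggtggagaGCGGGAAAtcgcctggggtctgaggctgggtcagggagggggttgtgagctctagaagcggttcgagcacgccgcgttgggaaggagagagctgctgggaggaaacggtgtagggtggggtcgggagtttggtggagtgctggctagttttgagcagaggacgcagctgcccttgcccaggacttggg
Tk1, chr11:117825965-117826264, minus strand: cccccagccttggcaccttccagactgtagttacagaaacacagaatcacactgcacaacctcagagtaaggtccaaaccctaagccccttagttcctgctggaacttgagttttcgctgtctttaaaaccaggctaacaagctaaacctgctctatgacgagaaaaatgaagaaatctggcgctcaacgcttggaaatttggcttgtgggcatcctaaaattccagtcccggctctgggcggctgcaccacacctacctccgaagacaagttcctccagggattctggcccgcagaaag
Cdk2, chr10:128705002-128705301, minus strand: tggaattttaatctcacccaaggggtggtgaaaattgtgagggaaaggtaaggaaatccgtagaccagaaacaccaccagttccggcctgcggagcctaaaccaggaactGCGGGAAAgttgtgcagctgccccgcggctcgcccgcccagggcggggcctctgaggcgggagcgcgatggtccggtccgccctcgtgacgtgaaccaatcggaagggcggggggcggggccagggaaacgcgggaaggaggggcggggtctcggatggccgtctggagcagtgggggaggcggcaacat
In Mcm5 a pair of overlapping matches forms a single run of capitals that starts 153 bases before the annotated start, and in Mcm6 an overlapping pair starts 110 bases and another match 47 bases before it. The match in Cdc6 starts 138 bases and that in Cdk2 140 bases before the RefSeq start of its window. The whole Cdc6 window lies inside the GENCODE coordinates of the gene given below, so its RefSeq start is not the GENCODE gene start. The Tk1 window holds none of these letters. A match is a description of the letters in the window and does not show binding.

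The 5 G1 cyclin genes fell, and the 3 kinase genes did not pass the test, but the line between them is thin for Ccnd3 and Cdk4. Their log2 changes were -0.26 and -0.23, and the difference between cyclins and kinases was not tested. All 5 genes that fell, of 8, encode cyclins, and over all tested genes 7.09% were called lower. The median log2 change of the 8 was -0.41. At an unadjusted p under 0.05 the kinase gene Cdk6 was higher and the kinase gene Cdk4 lower. Ccnd1 (ENSMUSG00000070348, chromosome 7, 144929931 to 144939925), which encodes cyclin D1, the growth-factor-responsive partner of CDK4 and CDK6, had 2.49, 3.03 and 5.12 CPM in Alb/MDA-9, against 15.3, 14.3 and 12.6 CPM in WT (log2 change -1.99, SE 0.22, adjusted p = 8.92e-05). The groups were far apart, and within Alb/MDA-9 library 3 was the highest. Ccnd2, another D-type cyclin, had 4.59, 5.30 and 4.82 CPM in Alb/MDA-9, against 7.62, 7.23 and 8.88 CPM in WT (log2 change -0.69, SE 0.17, adjusted p = 0.0156), and this call ended without WT 3. Ccnd3, the remaining D-type cyclin and the most abundant of them by reads, had 36.9, 35.1 and 39.4 CPM in Alb/MDA-9, against 44.9, 45.9 and 42.4 CPM in WT (log2 change -0.26, SE 0.08, adjusted p = 0.0476). Its groups did not overlap, but the fall was small, and its call ended in 10 of 16 alternative settings. Among these were the leave-outs of Alb/MDA-9 1, Alb/MDA-9 2, WT 1, WT 2 and WT 3. Ccne1, one of the cyclin genes whose proteins activate CDK2 at S phase entry, had 15.9, 16.5 and 18.5 CPM in Alb/MDA-9, against 25.5, 26.8 and 23.02 CPM in WT (log2 change -0.57, SE 0.11, adjusted p = 0.00354). Its paralogue Ccne2 (ENSMUSG00000028212, chromosome 4, 11191351 to 11204779) had 10.9, 8.09 and 9.15 CPM in Alb/MDA-9, against 20.5, 20.9 and 19.8 CPM in WT (log2 change -1.12, SE 0.13, adjusted p = 0.000120). Both E-type cyclin genes were lower in every Alb/MDA-9 library than in any WT library.

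Because longer transcripts gather more reads, levels within a family were compared as CPM per kilobase of annotated exon, which counts every annotated exon of a gene whether or not it is used. On that scale the summed level of the D-type cyclins was 5.51 ± 0.503 in Alb/MDA-9, against 8.88 ± 0.384 in WT (SD, n = 3 each). The share of Ccnd1 in that sum was 13.4% ± 3.99 in Alb/MDA-9, against 33.5% ± 1.87 in WT. For Ccnd2 it was 9.52% ± 1.21 in Alb/MDA-9, against 9.50% ± 1.45 in WT, and for Ccnd3 77.04% ± 3.42 in Alb/MDA-9, against 56.96% ± 1.12 in WT (SD, n = 3 each). The Ccnd1 level divided by the Ccnd3 level was 0.126, 0.161 and 0.242 in Alb/MDA-9, against 0.635, 0.578 and 0.554 in WT, and the Ccne2 level divided by the Ccne1 level was 0.523, 0.374 and 0.377 in Alb/MDA-9, against 0.613, 0.594 and 0.654 in WT. Both ratios were lower in every Alb/MDA-9 library (2-sided exact permutation test, p = 0.1 for each, the smallest value that 3 against 3 libraries allows; adjusted p = 0.1 over the 4 ratios computed, which were chosen after the values had been seen). Within the D-type cyclins the mean share of Ccnd1 was lower and that of Ccnd3 higher in Alb/MDA-9, while the mean shares of Ccnd2 lay within 1 SD of each other.

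The kinase genes showed small differences. Cdk2 (ENSMUSG00000025358, chromosome 10, 128697939 to 128705031), whose product acts with E-type and A-type cyclins, had 37.2, 37.3 and 40.9 CPM in Alb/MDA-9, against 39.9, 34.8 and 36.1 CPM in WT (log2 change 0.06, 95% interval -0.13 to 0.24, adjusted p = 0.697), with overlapping groups. Cdk4, a partner of the D-type cyclins, had 74.6, 79.1 and 89.1 CPM in Alb/MDA-9, against 103, 93.7 and 87.9 CPM in WT (log2 change -0.23, 95% interval -0.42 to -0.04, adjusted p = 0.100). Cdk6, the other partner of the D-type cyclins, had 115, 112 and 138 CPM in Alb/MDA-9, against 100.9, 105 and 105 CPM in WT (log2 change 0.23, 95% interval 0.05 to 0.41, adjusted p = 0.0926). The Cdk6 libraries did not overlap and were higher in Alb/MDA-9, without passing the adjusted threshold, and the Cdk4 groups overlapped. Cdk4 was called lower in 3 of 16 alternative settings, namely with library totals alone, with voom and without Alb/MDA-9 3. For these 3 kinase genes the 95% intervals lay between log2 -0.42 at the lower end for Cdk4 and 0.41 at the upper end for Cdk6. For Cdk2 the sign itself depended on scaling, since it was -0.044 with library totals alone.

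Among the pocket proteins, E2F factors and Myc, 1 of 6 genes fell, against 7.09% of all tested genes, with a median log2 change of -0.27. E2f1, which encodes an activating E2F and is itself an E2F target, had 12.7, 13.9 and 15.5 CPM in Alb/MDA-9, against 22.1, 21.1 and 17.6 CPM in WT (log2 change -0.53, SE 0.12, adjusted p = 0.0130). Its groups did not overlap, and the call ended without Alb/MDA-9 2, WT 1 or WT 2. E2f3, another activating E2F, had 23.9, 24.2 and 23.96 CPM in Alb/MDA-9, against 28.3, 28.9 and 27.5 CPM in WT (log2 change -0.23, 95% interval -0.42 to -0.05, adjusted p = 0.0915), lower in every Alb/MDA-9 library but short of the threshold. E2f2, the remaining activating E2F, was low, with 3.70, 3.55 and 5.66 CPM in Alb/MDA-9, against 5.45, 5.74 and 5.50 CPM in WT (log2 change -0.37, 95% interval -0.83 to 0.09, adjusted p = 0.276), and Alb/MDA-9 3 lay at the WT level. Rb1, the retinoblastoma tumour suppressor, which holds E2F factors inactive, had 18.3, 15.3 and 14.6 CPM in Alb/MDA-9, against 17.7, 17.5 and 15.03 CPM in WT (log2 change -0.06, 95% interval -0.33 to 0.21, adjusted p = 0.807). Its relative Rbl1, which encodes p107, had 14.3, 10.02 and 12.6 CPM in Alb/MDA-9, against 18.2, 13.9 and 13.8 CPM in WT (log2 change -0.31, 95% interval -0.66 to 0.03, adjusted p = 0.216). Both pocket protein genes had overlapping groups, and the sign of Rb1 turned, to 0.0040, without Alb/MDA-9 3. Myc, a growth-promoting transcription factor gene induced early in liver regeneration in rodents, had 201, 191 and 199.6 CPM in Alb/MDA-9, against 181, 186 and 182 CPM in WT (log2 change 0.11, 95% interval -0.03 to 0.25, adjusted p = 0.314). Its libraries did not overlap and were slightly higher in Alb/MDA-9, without passing the test, and its interval ends at a log2 change of 0.25. On the scale of CPM per kilobase of exon, the 3 activating E2F genes together had 9.76 ± 0.671 in Alb/MDA-9, against 12.8 ± 0.858 in WT (SD, n = 3 each).

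Most genes of origin licensing and the helicase fell. In licensing, the origin recognition complex, Cdc6 and Cdt1 load the MCM2-7 ring onto DNA in G1, and Cdc45 and the GINS proteins join it to form the active helicase in S phase. Here 9 of 12 genes fell and none rose, against 7.09% and 7.35% of all tested genes. The median log2 change was -0.52, and all 12 values were below 0. The loading factor gene Cdc6 (ENSMUSG00000017499, chromosome 11, 98907801 to 98923940), whose promoter window is shown above, had 1.38, 1.46 and 2.77 CPM in Alb/MDA-9, against 6.36, 5.38 and 4.73 CPM in WT (log2 change -1.56, SE 0.28, adjusted p = 0.00269). It was the member of this group with the strongest fall, from low levels, 96 reads over the 3 Alb/MDA-9 libraries and 311 over the 3 WT libraries. Cdt1, which brings the MCM ring to the origin, had 15.8, 13.98 and 18.5 CPM in Alb/MDA-9, against 21.96, 23.2 and 20.6 CPM in WT (log2 change -0.45, SE 0.12, adjusted p = 0.0254), a call that ended without Alb/MDA-9 1, Alb/MDA-9 2, WT 1 or WT 2. Orc1, a subunit of the origin recognition complex, had 2.49, 2.27 and 3.31 CPM in Alb/MDA-9, against 4.44, 3.02 and 2.78 CPM in WT (log2 change -0.35, 95% interval -0.92 to 0.22, adjusted p = 0.421). Its groups overlapped, and 139 and 194 reads in all leave a wide interval.

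The 6 genes of the MCM ring all fell, by amounts that lay close together. Mcm2 had 36.2, 36.2 and 41.9 CPM in Alb/MDA-9, against 51.2, 54.2 and 55.1 CPM in WT (log2 change -0.49, SE 0.08, adjusted p = 0.00188). Mcm3 had 37.6, 39.8 and 42.3 CPM in Alb/MDA-9, against 54.9, 62.6 and 57.7 CPM in WT (log2 change -0.55, SE 0.08, adjusted p = 0.000782). Mcm4 had 40.9, 42.7 and 50.03 CPM in Alb/MDA-9, against 65.7, 63.7 and 60.4 CPM in WT (log2 change -0.51, SE 0.09, adjusted p = 0.00203). All 3 subunit genes were lower in every Alb/MDA-9 library. Mcm5 (ENSMUSG00000005410, chromosome 8, 75109569 to 75128439) had 34.1, 39.02 and 49.8 CPM in Alb/MDA-9, against 64.4, 67.5 and 61.5 CPM in WT (log2 change -0.66, SE 0.12, adjusted p = 0.00239). Mcm6 (ENSMUSG00000026355, chromosome 1, 128331590 to 128359664) had 114, 126 and 116 CPM in Alb/MDA-9, against 159, 152 and 151 CPM in WT (log2 change -0.38, SE 0.07, adjusted p = 0.00341). Mcm7 had 32.1, 28.6 and 35.8 CPM in Alb/MDA-9, against 46.3, 51.3 and 43.96 CPM in WT (log2 change -0.55, SE 0.10, adjusted p = 0.00233). The groups were apart for these too, the 6 calls held without any single library, and none of the 6 passed the test against a fold of 1.5. Mcm7 has a processed pseudogene, Gm5487, 97.7% identical over 2157 bases, which held 48 reads in Alb/MDA-9, against 47 in WT. Per kilobase of exon the summed level of the 6 genes was 71.5 ± 5.01 in Alb/MDA-9, against 100.7 ± 2.80 in WT (SD, n = 3 each), and Mcm6 held the highest share, 35.7% ± 2.84 in Alb/MDA-9, against 32.8% ± 1.08 in WT, and Mcm2 the lowest, 7.66% ± 0.283 in Alb/MDA-9, against 7.64% ± 0.410 in WT (SD, n = 3 each). The protein ring holds each subunit once, whereas these transcript levels are unequal in both genotypes, and the shares of all 6 genes differed between genotypes by at most 2.89 percentage points.

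The helicase activators fell in part. Cdc45 had 2.49, 3.38 and 5.36 CPM in Alb/MDA-9, against 8.08, 7.84 and 7.75 CPM in WT (log2 change -1.08, SE 0.24, adjusted p = 0.00924). Its groups were apart, with Alb/MDA-9 3 nearest to WT. Gins2, a GINS subunit gene, had 6.46, 8.62 and 9.45 CPM in Alb/MDA-9, against 13.3, 11.996 and 9.88 CPM in WT (log2 change -0.52, 95% interval -0.89 to -0.15, adjusted p = 0.0603). Gins1, another GINS subunit gene, had 7.18, 6.11 and 5.06 CPM in Alb/MDA-9, against 7.88, 6.97 and 6.57 CPM in WT (log2 change -0.22, 95% interval -0.60 to 0.16, adjusted p = 0.449). Gins2 was lower in every Alb/MDA-9 library without passing the threshold, which it passed in 5 of 16 alternative settings. Gins2 overlaps Gse1 and Gm20388 on the opposite strand, so that of its reads on either strand 74.0% lay on the opposite one, and its own-strand reads numbered 422 in Alb/MDA-9, against 664 in WT. Gins1 had overlapping groups.

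**Figure D3:**
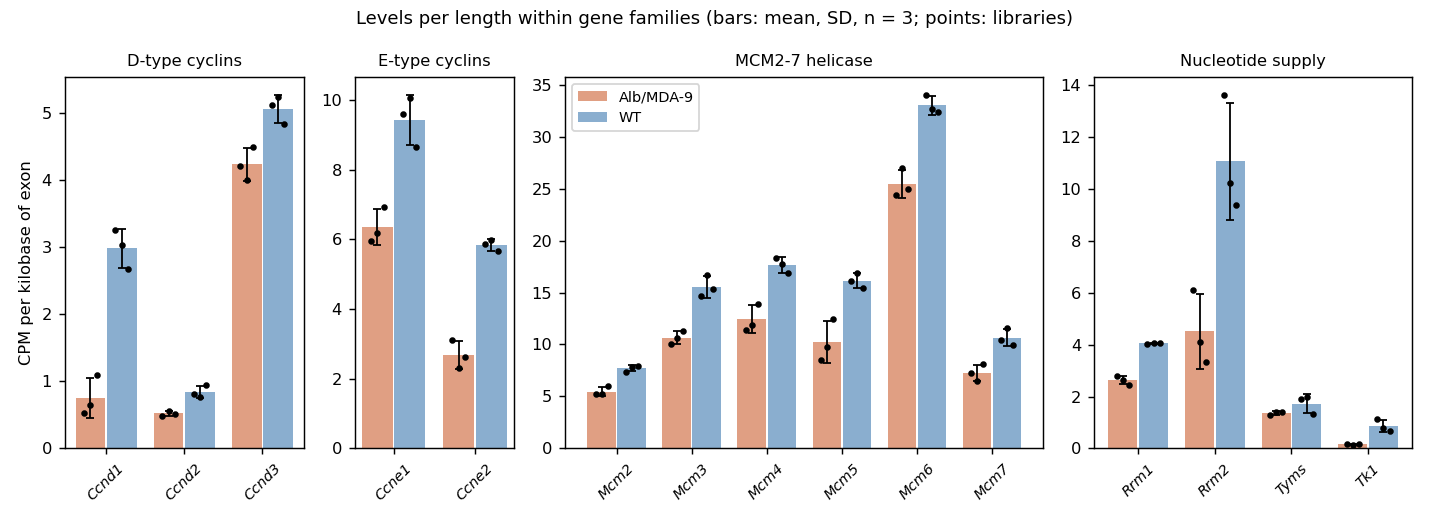
CPM per kilobase of annotated exon for D-type cyclins, E-type cyclins, MCM2-7 and nucleotide supply genes, with bars for the mean, error bars for the SD over 3 libraries and points for single libraries, Alb/MDA-9 left of WT. Ccnd1 stands well below its WT level in Alb/MDA-9 while Ccnd3 moves little, and among the MCM genes Mcm6 has the highest and Mcm2 the lowest mean in both genotypes.

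Among polymerase and fork genes 8 of 10 fell and none rose, against 7.09% and 7.35% of all tested genes. Their median log2 change was -0.51, with all 10 values below 0. The number lower was 5 without Alb/MDA-9 1, Alb/MDA-9 2, WT 2 or WT 3. Over all tested genes the numbers lower in those fits were 893, 579, 515 and 634, against 943 in the main fit. Prim1, which encodes the catalytic primase subunit that makes the RNA primer, had 11.1, 8.62 and 11.9 CPM in Alb/MDA-9, against 19.6, 16.2 and 18.8 CPM in WT (log2 change -0.79, SE 0.14, adjusted p = 0.00268). Pola1, the catalytic subunit of DNA polymerase alpha, its partner, had 13.8, 14.3 and 15.2 CPM in Alb/MDA-9, against 17.9, 20.9 and 18.8 CPM in WT (log2 change -0.42, SE 0.11, adjusted p = 0.0246). The priming genes were both lower in every Alb/MDA-9 library. Pold1, the catalytic subunit of polymerase delta, which copies the lagging strand, had 12.4, 13.5 and 18.3 CPM in Alb/MDA-9, against 22.6, 23.7 and 19.3 CPM in WT (log2 change -0.58, SE 0.15, adjusted p = 0.0205). Pole, the catalytic subunit of polymerase epsilon, which copies the leading strand, had 12.3, 13.1 and 17.5 CPM in Alb/MDA-9, against 20.3, 20.8 and 22.6 CPM in WT (log2 change -0.57, SE 0.14, adjusted p = 0.0144). For both, Alb/MDA-9 3 lay nearest to WT, and the Pola1, Pold1 and Pole calls each ended without Alb/MDA-9 2 and without at least 1 other library.

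The sliding clamp gene fell, as did 1 of the 2 clamp loader genes. Pcna (ENSMUSG00000027342, chromosome 2, 132249162 to 132253314), the clamp that tethers polymerases to DNA, had 46.2, 42.3 and 46.1 CPM in Alb/MDA-9, against 61.04, 61.7 and 59.8 CPM in WT (log2 change -0.44, SE 0.07, adjusted p = 0.00162). The spread within each group was small beside the difference, and a pseudogene 99.2% identical over 781 bases, Pcna-ps2, held 208 reads in Alb/MDA-9, against 230 in WT, so that some Pcna reads may not have been assigned. Rfc4, a clamp loader subunit gene, had 2.54, 2.39 and 3.73 CPM in Alb/MDA-9, against 7.27, 5.18 and 6.09 CPM in WT (log2 change -1.10, SE 0.23, adjusted p = 0.00695). Rfc3, another loader subunit gene, had 13.4, 12.9 and 14.7 CPM in Alb/MDA-9, against 18.6, 15.02 and 14.1 CPM in WT (log2 change -0.22, 95% interval -0.51 to 0.06, adjusted p = 0.298). The Rfc4 groups were apart and the Rfc3 groups overlapped, and the difference between the 2 genes was not tested. Rpa2, a subunit of the single-strand DNA-binding protein RPA, had 9.72, 9.84 and 8.61 CPM in Alb/MDA-9, against 16.96, 14.6 and 13.3 CPM in WT (log2 change -0.67, SE 0.14, adjusted p = 0.00572). Lig1, the ligase that seals Okazaki fragments, had 23.4, 31.97 and 25.8 CPM in Alb/MDA-9, against 34.1, 38.4 and 37.7 CPM in WT (log2 change -0.44, SE 0.11, adjusted p = 0.0204), a call that ended without Alb/MDA-9 1, WT 2 or WT 3. Fen1, the flap endonuclease that trims those fragments, had 15.1, 20.1 and 18.4 CPM in Alb/MDA-9, against 24.5, 20.6 and 21.7 CPM in WT (log2 change -0.32, 95% interval -0.58 to -0.05, adjusted p = 0.112). All 3 were lower in every Alb/MDA-9 library than in any WT library, and Fen1 did not pass the adjusted threshold.

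Among nucleotide supply genes 3 of 4 fell and none rose, against 7.09% and 7.35% of all tested genes. Their median log2 change was -0.96. Ribonucleotide reductase, which turns ribonucleotides into deoxyribonucleotides, is built from the large subunit encoded by Rrm1 and the small subunit encoded by Rrm2, whose level is known to follow S phase. Rrm1 had 30.6, 29.1 and 27.1 CPM in Alb/MDA-9, against 44.5, 44.9 and 44.8 CPM in WT (log2 change -0.63, SE 0.08, adjusted p = 0.000265). Rrm2 (ENSMUSG00000020649, chromosome 12, 24708241 to 24714146) had 16.96, 11.4 and 9.21 CPM in Alb/MDA-9, against 37.8, 28.3 and 25.98 CPM in WT (log2 change -1.29, SE 0.20, adjusted p = 0.000932). Both subunit genes were lower in every Alb/MDA-9 library, and within Alb/MDA-9 library 3 was the lowest for both, as it was for Rpa2 but for no other gene of the 27 that fell. The Rrm2 level per kilobase of exon divided by that of Rrm1 was 2.21, 1.56 and 1.35 in Alb/MDA-9, against 3.37, 2.51 and 2.30 in WT (2-sided exact permutation test, p = 0.1, the smallest possible). The processed pseudogene Gm48455, 95.5% identical to Rrm2 over 419 bases, held 3 reads in Alb/MDA-9, against 58 in WT.

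Tk1 (ENSMUSG00000025574, chromosome 11, 117815526 to 117826092), the cytosolic thymidine kinase of the salvage pathway, whose transcript is known to rise in S phase, had 0.939, 0.699 and 0.903 CPM in Alb/MDA-9, against 5.81, 4.10 and 3.55 CPM in WT (log2 change -2.40, SE 0.30, adjusted p = 0.000218). It showed the strongest fall of the 41 genes, with all Alb/MDA-9 libraries under 1 CPM and 44 reads over the 3 of them, against 255 over the 3 WT libraries. Tk1 overlaps Afmid and Gm20708 on the opposite strand, and opposite-strand reads over Tk1 numbered 107 in Alb/MDA-9, against 101 in WT, so that with reads of either strand its log2 change was -1.17 (edgeR adjusted p = 0.00448). Tyms, thymidylate synthase, which makes thymidylate anew from deoxyuridylate, had 7.74, 8.44 and 8.61 CPM in Alb/MDA-9, against 11.6, 11.996 and 8.05 CPM in WT (log2 change -0.35, 95% interval -0.72 to 0.01, adjusted p = 0.188), with WT 3 inside the range of Alb/MDA-9. The Tk1 level per kilobase of exon divided by that of Tyms was 0.142, 0.0969 and 0.123 in Alb/MDA-9, against 0.588, 0.4005 and 0.517 in WT (2-sided exact permutation test, p = 0.1, the smallest possible). On these values the salvage gene stood lower relative to the gene of new synthesis in each Alb/MDA-9 library. With reads of either strand the mean ratio in Alb/MDA-9 was 0.566 of that in WT, against 0.240 with reads of the annotated strand.

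Uhrf1 (ENSMUSG00000001228, chromosome 17, 56303321 to 56323486), which recognises hemimethylated DNA behind the fork and recruits the maintenance methyltransferase DNMT1, had 7.74, 8.21 and 13.4 CPM in Alb/MDA-9, against 24.6, 29.1 and 22.01 CPM in WT (log2 change -1.37, SE 0.19, adjusted p = 0.000424). The groups were far apart, and Alb/MDA-9 3 again stood above the other Alb/MDA-9 libraries. Its pseudogene Gm5648, 98.3% identical over 1590 bases, held 0 reads in Alb/MDA-9, against 1 in WT.

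The groups of genes set by role can be set side by side as descriptions, without a test between them. Genes called lower were 5 of 8 for cyclins and CDKs, 1 of 6 for pocket proteins, E2F and Myc, 9 of 12 for licensing and the helicase, 8 of 10 for polymerases and fork factors, and 3 of 4 for nucleotide supply, against 7.09% of all tested genes. Among these 5 groups nucleotide supply, with only 4 genes, had the lowest median log2 change and held the gene with the strongest fall, Tk1. The order was not the same in the other pathway lists described below. There the 17 other nucleotide supply genes had a median of -0.21. The other licensing and helicase genes had -0.34, and the other polymerase and fork genes -0.37. Licensing and fork genes had nearly equal medians, -0.52 and -0.51. The strongest fall was that of Ccnd1 among cyclins and CDKs, Cdc6 in licensing, Rfc4 at the fork and Tk1 in nucleotide supply. Mcm6 and Pcna fell by log2 0.38 and 0.44. Cdk2, Cdk4, Cdk6, Rb1 and Myc, none of which passed the test, had log2 changes between -0.23 and 0.23. The other genes that did not pass it all had negative log2 changes, from -0.22 for Gins1 to -0.52 for Gins2. Rbl1, E2f2 and E2f3 were among them.

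Other genes of the pathway were taken from lists of its known components. Of 87 listed genes 86 were tested, of which 27 fell and none rose, against 7.09% lower and 7.35% higher over all tested genes. Their median log2 change was -0.28. At an unadjusted p under 0.05, 47 were lower and 0 higher, against 13.9% and 14.0% of all tested genes, and DESeq2 called 27 lower and 0 higher. The number lower was 17 without WT 2 and 41 without Alb/MDA-9 3. Over all tested genes 515 of 13516 and 1208 of 13695 were lower in those fits. Replication-coupled chromatin genes fell in 6 of 9 cases. Hells, which encodes a chromatin remodeller of DNA methylation, had 25.9, 23.6 and 26.5 CPM in Alb/MDA-9, against 45.1, 43.3 and 41.4 CPM in WT (log2 change -0.77, SE 0.08, adjusted p = 7.82e-05). The histone chaperone gene Asf1b and the chromatin assembly factor subunit genes Chaf1a and Chaf1b had log2 changes of -1.15, -0.61 and -0.74. Of 15 other cell-cycle entry and E2F genes 4 fell, namely the repressive E2F genes E2f7, E2f8 and E2f6 and the S-phase cyclin gene Ccna2. E2f7 had 0.387, 1.28 and 0.843 CPM in Alb/MDA-9, against 4.998, 4.26 and 3.91 CPM in WT (log2 change -2.39, SE 0.34, adjusted p = 0.000634). E2f8 had 8.51, 5.77 and 6.14 CPM in Alb/MDA-9, against 19.8, 12.9 and 13.02 CPM in WT (log2 change -1.16, SE 0.20, adjusted p = 0.00218). Both, like E2f1, are known targets of E2F factors. Of 6 tested CDK inhibitor genes 0 passed the test in edgeR, 1 was lower and 0 higher at an unadjusted p under 0.05, and DESeq2 called 0; voom, no low-count filter and the leave-out of Alb/MDA-9 3 each called 1 lower. The p21 gene Cdkn1a had 339, 316 and 271 CPM in Alb/MDA-9, against 319, 308 and 307 CPM in WT (log2 change -0.01, 95% interval -0.19 to 0.17, adjusted p = 0.946). The p27 gene Cdkn1b had 38.9, 35.99 and 25.3 CPM in Alb/MDA-9, against 29.8, 35.3 and 35.5 CPM in WT (log2 change -0.0038, 95% interval -0.30 to 0.30, adjusted p = 0.990). The inhibitor gene lower at the unadjusted threshold was Cdkn2c, at low levels and with overlapping groups (log2 change -1.02, 95% interval -1.88 to -0.16, edgeR adjusted p = 0.112). Cdkn2b had a log2 change of 0.38 (95% interval -0.08 to 0.84, edgeR adjusted p = 0.267), also with overlapping groups.

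Of 23 other polymerase and fork genes 7 fell, against 7.09% of all tested genes. Pclaf, which encodes a PCNA-associated factor, had 0.442, 0.699 and 0.903 CPM in Alb/MDA-9, against 6.01, 5.43 and 4.497 CPM in WT (log2 change -2.96, SE 0.29, adjusted p = 4.1e-05). Clspn, which encodes the checkpoint adaptor claspin, had 1.22, 1.57 and 2.77 CPM in Alb/MDA-9, against 8.33, 8.92 and 8.40 CPM in WT (log2 change -2.21, SE 0.25, adjusted p = 0.000122). The clamp loader subunit gene Rfc5 and the alternative loader gene Chtf18 had log2 changes of -0.67 and -0.95. Both Pclaf and Clspn stood below 3 CPM in every Alb/MDA-9 library. Of 16 other licensing and helicase genes 4 fell, namely Recql4, Ticrr, Mcm10 and Orc3, with log2 changes of -1.19, -1.16, -1.04 and -0.51. Of 17 other nucleotide supply genes 6 fell, the 4 with the strongest falls being the dUTPase gene Dut, the deoxycytidine kinase gene Dck, the uridylate synthesis gene Umps and the dNTP hydrolase gene Samhd1, with log2 changes of -0.76, -0.59, -0.51 and -0.43. The Ticrr and Chtf18 calls ended in each of the 6 leave-outs of a library except, for both genes, that of Alb/MDA-9 3.

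**Figure D4:**
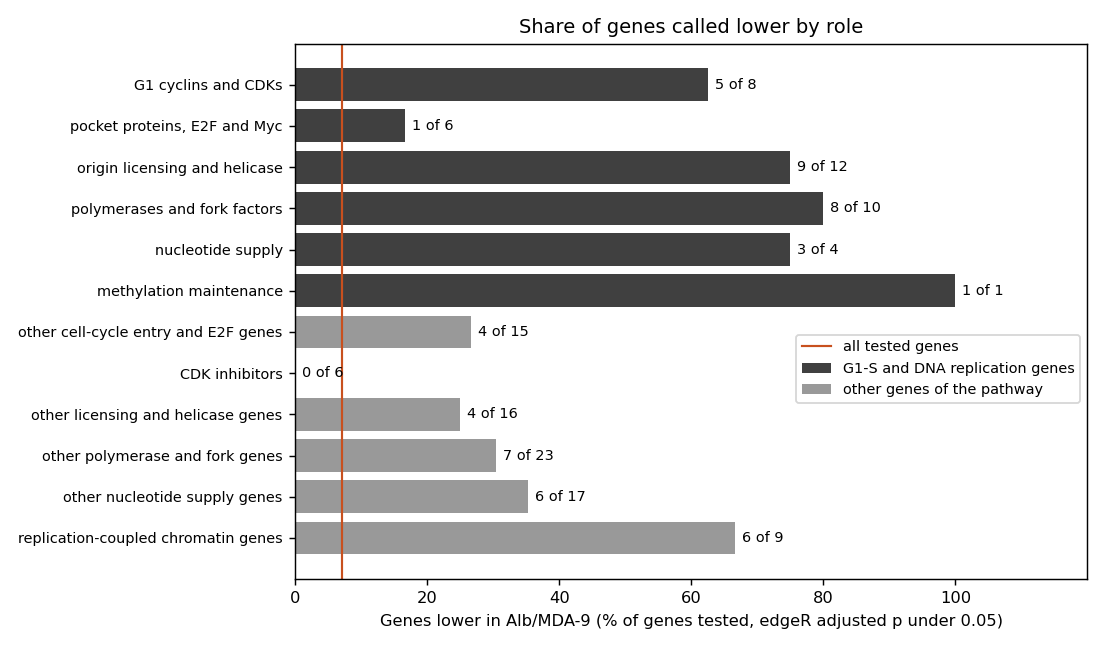
Share of tested genes called lower in Alb/MDA-9 for each role among the 41 genes (dark bars) and for other lists of the same pathway (light bars), with the counts beside the bars and a line at the 7.09% of all tested genes. The pocket protein, E2F and Myc group and the CDK inhibitors have the lowest shares.

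Markers of liver cell types were also examined, and their lists did not all move in the same direction. In bulk samples fewer cells of a type and less RNA per cell cannot be told apart, which applies to cycling cells as well. Over all tested genes 7.09% were called lower and 7.35% higher, shares that apply to each marker list below. Kupffer cell and macrophage markers fell in 12 of 16 cases (median log2 change -0.76) and none rose. Their summed level was 265 to 417 CPM in Alb/MDA-9, against 457 to 469.6 CPM in WT. Most of that sum was Cd68, and without it the sum was 94.8, 111.8 and 128 CPM in Alb/MDA-9 1 to 3, against 198, 190.6 and 185.6 CPM in WT 1 to 3. The complement genes C1qa and C1qb, the most abundant after Cd68, had log2 changes of -0.23 and -0.66, of which the second passed the test. Endothelial markers fell in 7 of 16 cases (median -0.36) and summed to 239 to 261 CPM in Alb/MDA-9, against 307 to 326 CPM in WT. The most abundant, Stab1, Cdh5 and Stab2, had log2 changes of -0.14, -0.46 and -0.18, and of these Cdh5 passed the test. For stellate cells and fibroblasts 6 of 16 markers fell (median -0.52), with a sum of 309.8 to 383 CPM in Alb/MDA-9, against 426 to 444 CPM in WT. The most abundant, Reln, Dcn and Tagln, had log2 changes of -0.11, -0.74 and -0.05, and of these Dcn passed the test. None of the markers of these 3 lists was at 0 reads in all libraries. Of 11 matched hepatocyte markers 1 rose and 3 fell. Apob rose, with a log2 change of 0.36, and Cps1, Serpina1a and Serpina1b fell, with log2 changes of -0.95, -0.88 and -0.31. The summed level of the hepatocyte markers was 77884 to 93521 CPM in Alb/MDA-9, against 77133 to 80949 CPM in WT, and most of it was Alb. The albumin gene Alb had 70170.0, 63917 and 55090.0 CPM in Alb/MDA-9, against 58379, 57188 and 54048 CPM in WT (log2 change 0.16, 95% interval -0.07 to 0.38, adjusted p = 0.355), and the next most abundant, Fgb and Apoa1, had log2 changes of 0.27 and -0.15. Of 12 lymphocyte markers 0 could be tested and 7 had 0 reads in every library, and the most abundant, Cd3e, Cd4 and Cd79b, were part of a sum of 0.387 to 1.28 CPM in Alb/MDA-9, against 0.533 to 0.872 CPM in WT. Markers of neutrophils and monocytes summed to 3.73 to 4.34 CPM in Alb/MDA-9, against 6.10 to 7.12 CPM in WT, with 1 of 3 tested lower and Plac8, Itgam and Csf3r the most abundant. Those of red blood cells, led by Alas2, Hbb-bs and Hba-a1, summed to 27.8 to 30.7 CPM in Alb/MDA-9, against 32.6 to 39.3 CPM in WT, with the 1 tested, Alas2, lower. Nearly all of that sum was Alas2, and the globin genes were too low to be tested. Hbb-bs had 0.387, 0.291 and 0.542 CPM in Alb/MDA-9, against 0.202, 0.0513 and 0.178 CPM in WT. For Hba-a1 the mean was 0.0569 CPM in Alb/MDA-9, against 0.175 CPM in WT. Bile duct and mesothelial markers included 3 that rose and 2 that fell among 6 tested, with a sum of 252 to 362 CPM in Alb/MDA-9, against 60.03 to 66.9 CPM in WT. The osteopontin gene Spp1 had 171, 195 and 279 CPM in Alb/MDA-9, against 1.36, 0.769 and 0.769 CPM in WT. Without it the sum of the list was 80.2, 83.9 and 82.3 CPM in Alb/MDA-9 1 to 3, against 58.7, 66.1 and 59.6 CPM in WT 1 to 3. Sox9 and Krt19 also rose, with log2 changes of 0.79 and 0.57, and the bile duct keratin gene Krt7 and the mesothelin gene Msln fell, with log2 changes of -1.71 and -3.26. The part of non-hepatocyte cells in the lower level of the 41 genes was not tested.

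The Alb/MDA-9 libraries differed among themselves. The median of the 41 genes, as log2(CPM + 0.5) minus the WT mean, was -0.56, -0.56 and -0.37 in Alb/MDA-9 1 to 3, against 0.04, 0.02 and -0.07 in WT 1 to 3. Alb/MDA-9 3 had the highest value of its group for 18 of the 27 genes that fell and the lowest for 3, Rrm1 and Rrm2 among them. Over all tested genes Alb/MDA-9 3 also stood apart from the others on principal component 2 (16.7% of the variance), and the genotypes parted on component 1 (56.9%). The sum of the Kupffer markers other than Cd68 was highest in Alb/MDA-9 3 within its group, but not every marker was. Timd4 was lowest there, with 0.774, 1.75 and 0.723 CPM in Alb/MDA-9. Cd68 was also lowest there, with 322, 284 and 137 CPM in Alb/MDA-9, against 262, 267 and 284 CPM in WT. The endothelial sum was highest in Alb/MDA-9 3 (239, 239 and 261 CPM), and the stellate cell and fibroblast sum was lowest there (383, 370 and 309.8 CPM). Much of that last difference lay in Reln, the most abundant marker of the list. It had 168, 146 and 101 CPM in Alb/MDA-9, against 143, 148 and 156 CPM in WT. Each library held between 16403918 and 19046739 strand-matched gene reads. A count of 0 thus allows a TMM-scaled level of up to 0.166 to 0.181 CPM in Alb/MDA-9 libraries and 0.151 to 0.178 CPM in WT libraries, that of 3 reads, for counting error only.

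**Figure D5:**
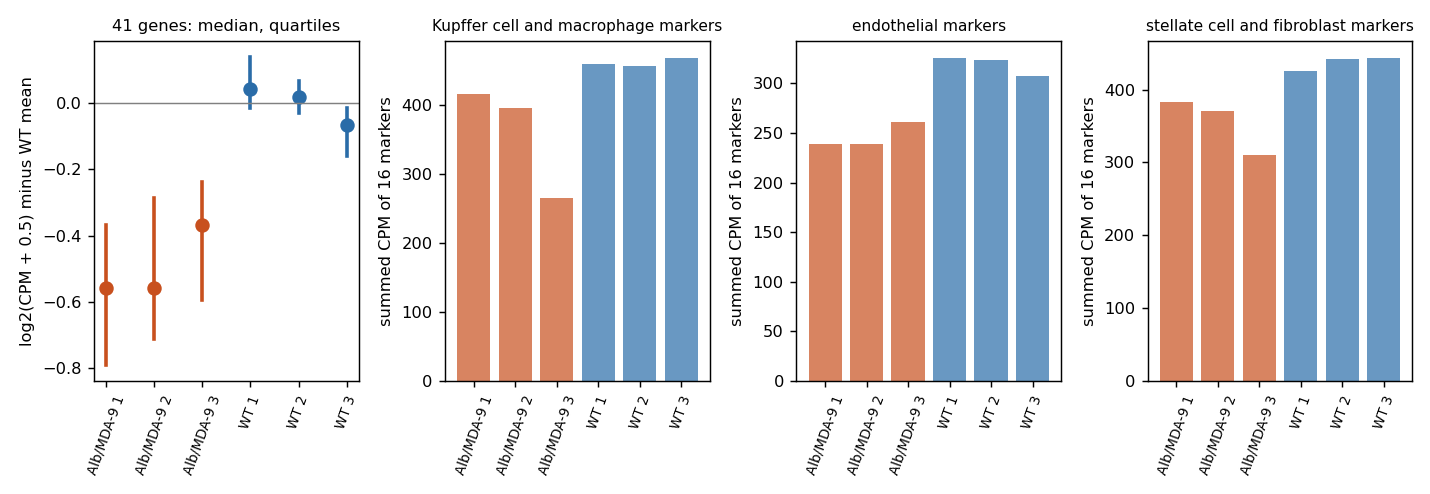
For each library, Alb/MDA-9 left of WT, the left panel gives the median and quartiles of the 41 genes as log2(CPM + 0.5) minus the WT mean, and the other panels the summed CPM of 16 Kupffer cell and macrophage, 16 endothelial and 16 stellate cell and fibroblast markers. The median of the 41 genes and the 3 marker sums are lower in all 3 Alb/MDA-9 libraries.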

How the data were processed

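The deposited tables hold raw read counts per gene from STAR, per the file layout, with an unstranded column and a column for each strand. Per the submitters' processing notes, the tools were edgeR 3.18.1, STAR 2.7.9a, FastQC 0.11.2 and Trim Galore 0.6.6, on GRCm38 or mm10. Their annotation release is not given in the sources used here. A TruSeq RNA kit and a HiSeq3000 were used, per the labels' protocols. The reverse-strand column was used, which held 96.9% to 97.2% of stranded reads. The 4 summary rows were left out: unmapped reads were 9.22% to 10.4% of all reads, reads mapped to several places 18.7% to 20.2%, reads outside genes 4.46% to 5.60% and reads over several genes 2.22% to 2.37%. STAR counts only reads with a single place, so genes with near-identical copies can lose counts.

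Genes were filtered with filterByExpr (minimum count 10), scaled by TMM and tested, Alb/MDA-9 over WT, by edgeR 4.0.16 under R 4.3.3 (quasi-likelihood F test). The fit had no covariates, which left 4 residual degrees of freedom. Benjamini-Hochberg adjustment ran over 13296 genes, with a threshold of 0.05. The SE is the log2 change divided by the root of F, and 95% intervals use it. The script was tested on simulated data. Alternatives used DESeq2 1.42.0, limma 3.58.1 and other scalings, filters and libraries. The members, lists and tests were chosen with earlier results of these data known. All 41 genes are named. Of other pathway genes, those called with the largest changes are named, at most 4 per list, and of each marker list the 3 most abundant genes. Cdkn1a, Cdkn1b, Cdkn2b, Cdkn2c, Krt7, Msln, Timd4 and the hepatocyte markers that passed the test were chosen after their values were seen. The same holds for the marker sums without Cd68 or Spp1. Near-identical copies are genes whose transcripts match at 95% identity or more over at least 200 bases (BLAST 2.17.0). Gene coordinates are from GENCODE M21, which held 55227 of the 55487 gene identifiers; 1 marker symbol, Tf, was not matched.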

Additional observations from a re-analysis of the deposited data

How the results depend on the processing

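Under 16 alternative settings all 27 genes that fell kept a log2 change below 0 where tested, and 0 of the 41 were called higher in any of them. The calls of 19 of the 27 held in every setting other than the test against a fold of 1.5, and 6 held in every setting in which they were tested. The stricter low-count filter left out Cdc6, Orc1 and Tk1. The number lower was 6 with the test against a fold of 1.5 and 25 to 31 under the other scalings, filters, tools, read column and replicate block; it was 21 to 30 when 1 library was left out. The median log2 change of the 41 genes was -0.61 with library totals alone, which moved the median of all tested genes to -0.11, and -0.45 to -0.59 when 1 library was left out. For other pathway genes the number lower was 42 with library totals alone, 4 with the test against a fold of 1.5 and 17 to 41 when 1 library was left out. Over all tested genes 525 were higher and 1622 lower with library totals alone; the test against a fold of 1.5 gave 84 and 156. The range when 1 library was left out was 503 to 1178 higher and 515 to 1208 lower. The log2 change of Cdk2 was -0.044 with library totals alone, and that of Rb1 ran from -0.16 to 0.0040 when 1 library was left out, above 0 without Alb/MDA-9 3; neither passed the test in any setting, and the cause was not tested. With voom and quality weights 29 of the 41 and 40 other pathway genes were lower, against 1291 of all 13296 tested genes. With the replicate number as a block 26 of the 41 fell, against 826 of all 13296 tested genes. Same-numbered libraries had deviations from their group means that correlated at -0.0525, -0.00368 and -0.0664. These values show no shared expression pattern, but with 3 libraries per group they cannot tell whether same-numbered libraries were prepared together. Depth limits Orc1, Cdc6, Tk1 and Rfc4 most, which had 44 to 348 reads per group of 3 libraries.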
